A study of Paxillus involutus and Laccaria bicolor with 24 samples.

Results

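The last step of a time course in the ectomycorrhizal fungus *Paxillus involutus* is described here, from glucose depletion at day 9 (t3) to prolonged glucose depletion at day 13 (t4). The comparison rests on the 3 t4 libraries and the 3 t3 libraries, which are 6 of the 24 samples of the series. All gene models of *P. involutus* with a mean count of at least 11 reads over the 12 libraries of the species were taken, whatever they did between t3 and t4. These were 12032 of 17968 gene models.

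The series followed mycelium of *P. involutus* (strain ATCC 200175) and of a second ectomycorrhizal fungus, *Laccaria bicolor*, on an extract of soil organic matter. Mycelium was grown in petri dishes on a layer of glass beads in liquid Melin-Norkrans medium, deprived of nitrogen for a day, washed, and given a hot-water extract of organic soil material from a spruce forest, to which glucose had been added. All groups share this history, and they differ in the time spent on the extract. The t4 group (3 libraries, day 13) had been left on the extract for 4 days beyond the t3 group (3 libraries, day 9), which the labels call glucose depletion. The other groups of *P. involutus* are ammonium depletion (t2, day 5) and active growth (t1, day 2), with 3 libraries each. Time and depletion run together in this design and cannot be told apart. The labels describe the 3 samples of a time point as biological replicates.

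Ectomycorrhizal fungi live on the fine roots of trees, from which they receive sugars, and in return supply the tree with nitrogen and other nutrients taken from soil. Much of the nitrogen in forest soil is bound in organic matter, and *P. involutus* releases it by an oxidative attack that uses Fenton chemistry together with secreted peptidases. Once glucose has run out in a closed culture, the mycelium has no ready supply of the carbon that a tree would otherwise deliver, and fungi in this state are known to turn over their own cell contents. The names of the gene models could not be paired with annotations, since 0 of the 17968 matched an identifier in the reference table used here. The changes are therefore given by number, size, level and course over time, and planned lists of peptidases, transporters, autophagy genes and enzymes that act on carbohydrates were not analysed here.

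Between 10219492 and 10896080 reads were counted per library at t4, and between 9879088 and 10905116 at t3, with at least 99.9% of them on the tested gene models. The t4 libraries stood clearly apart from the t3 libraries. When the shares of all counts were compared between 2 libraries, between 9.96 and 11.6% of the counts lay on other gene models in the 9 pairs made of a t4 and a t3 library. Within t4 this was 3.56 to 5.58% in the 3 pairs, and within t3 it was 3.03 to 3.85%. The pairs within t4 and within t3 overlapped in this measure, and the largest distance within a time point was that between t4 replicates 1 and 3. The median SD of log2 CPM (reads per 1000000 counted reads, after TMM scaling) within a time point was 0.10 at t4 and 0.091 at t3.

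The reads were spread over more gene models at t4. The 10 most abundant gene models of each library held 5.84, 5.74 and 5.33% of its counts at t4, against 7.10, 6.90 and 7.04% at t3. All t4 libraries lay below all t3 libraries, with a mean of 5.64 ± 0.27% at t4 and 7.01 ± 0.10% at t3 (SD, n = 3 each). The effective number of gene models, the exponential of the Shannon entropy of the shares, was 4444, 4465 and 4499 at t4 and 4120, 4174 and 4132 at t3. It took the 1078, 1075 and 1070 most abundant gene models to reach 50% of the counts at t4, against 1008, 1016 and 1012 at t3. The groups did not overlap in any of these measures. The exact two-sided permutation test over the 20 divisions of the 6 libraries gave p = 0.1 for each, the smallest value that 3 against 3 allows (0.14 after Benjamini-Hochberg adjustment over 7 measures). The number of gene models detected at equal depth was 13204 at t4 and 13207 at t3 on average (exact permutation p = 0.9). The wider spread of reads was not particular to the last step. The effective number of gene models had been 3389, 3435 and 3383 at t1 and 3823, 3781 and 3842 at t2. To reach 50% of the counts took 726, 741 and 733 gene models at t1 and 916, 902 and 927 at t2.

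**Figure D1:**
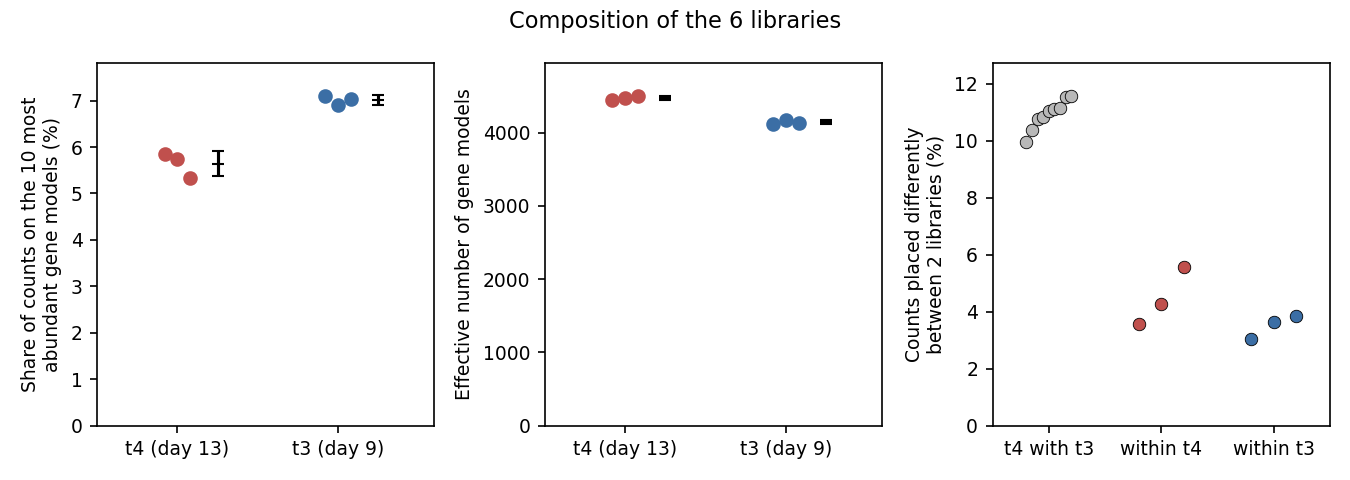
The percentage of counts that the 10 most abundant gene models took (left), the effective number of gene models (middle) and the share of counts placed differently between 2 libraries (right, %) are plotted, with 1 point per library or pair and bars for mean ± SD of 3 libraries. The t4 libraries lie between 5.33 and 5.84% in the left panel, below the t3 libraries at 6.90 to 7.10%, and every t4 with t3 pair on the right lies above the pairs within a time point.

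Between t4 and t3 many gene models changed by small amounts and few by large amounts. Of the 12032 gene models, 3020 (25.1%) differed between t4 and t3 at a false discovery rate of 1% (edgeR's quasi-likelihood test on the counts, fitted to all 12 libraries, Benjamini-Hochberg adjustment). Of these, 1421 rose at t4 (11.8% of those tested) and 1599 fell (13.3%). A change of at least 2-fold was found for 301 of them (2.5%), with 167 that rose (1.39%) and 134 that fell (1.11%). At a false discovery rate of 5%, 4455 gene models (37%) differed. In bulk RNA, a change in the amount of a transcript per cell and a change in the share of cells that carry it cannot be told apart.

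Most of the called changes were modest. Among the gene models that rose, 894 rose by less than 1.5-fold, 360 by 1.5 to 2-fold, 146 by 2 to 4-fold and 21 by at least 4-fold. Among those that fell, 1142 fell by less than 1.5-fold, 323 by 1.5 to 2-fold, 118 by 2 to 4-fold and 16 by at least 4-fold. The median log2 fold change was 0.48 for the gene models that rose and −0.44 for those that fell. Changes below 1.5-fold made up 67.4% of all calls, and the smallest called change was 0.19 on the log2 scale. Over all tested gene models, all 3 t4 libraries lay above all 3 t3 libraries in CPM for 2652 (22%) and below them for 3035 (25.2%). The groups did not overlap for 1396 of the 1421 that rose and 1588 of the 1599 that fell.

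By its typical change the step was the smallest of the 3. The median absolute log2 fold change over all tested gene models was 0.23 for t2 against t1, 0.25 for t3 against t2 and 0.19 for t4 against t3, beside a median standard error of 0.089, 0.089 and 0.088. At the same threshold 3861 gene models (32.1%) changed at t2 against t1, 4526 (37.6%) at t3 against t2 and 3020 at t4 against t3. At least 2-fold rises numbered 118 (0.981%), 324 (2.69%) and 167 (1.39%) in these 3 steps, and at least 2-fold falls 232 (1.93%), 172 (1.43%) and 134 (1.11%). Neighbouring steps share the libraries of a time point, so these values are set side by side without a test.

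**Figure D2:**
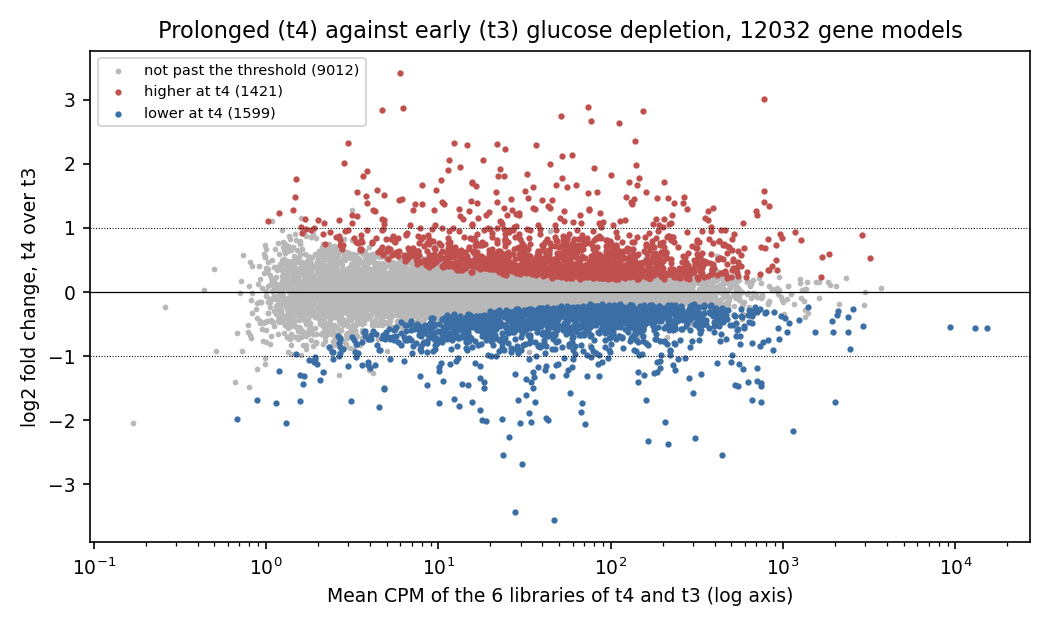
The log2 fold change of t4 over t3 is plotted for each of 12032 gene models against its mean CPM over the 6 libraries (log axis), with gene models past the 1% false discovery rate coloured by direction and dotted lines at 2-fold. The 1421 gene models that rose and the 1599 that fell crowd near the zero line, and 167 and 134 of them reach 2-fold.

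The largest rise belonged to gene model e_gw1.207.6.1, which had few reads before t4. It had 113, 142 and 118 reads in the t4 libraries, against 10, 5 and 18 reads in the t3 libraries. Every t4 library lay above every t3 library, which the choice of this gene model required. Its level was 10.9 ± 1.00 CPM at t4 and 0.998 ± 0.545 CPM at t3 (SD, n = 3 each), a log2 fold change of 3.42 with a standard error of 0.25 (adjusted p = 7.71e-09, edgeR). Earlier in the course it had 6, 1 and 3 reads in the t1 libraries and 0, 1 and 2 reads in the t2 libraries, so that most of its reads in the 12 libraries came from the last time point. From t2 to t3 it had already risen, by a log2 fold change of 3.25 on few reads (adjusted p = 0.000865, edgeR). The difference between that step and the last one was not called (adjusted p = 0.99, edgeR).

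By mean CPM over the 6 libraries of t4 and t3, the most abundant of the gene models that rose at least 2-fold was estExt_Genemark1.C_1_t10258. Its CPM was 1231, 1103 and 1215 at t4, against 479.8, 446.0 and 479.3 at t3. The replicates of each time point lay close together, and the gap between the groups was many times their spread. That the groups did not overlap was required by the choice of this gene model. The mean was 1183 ± 69.8 CPM at t4 and 468.4 ± 19.3 CPM at t3 (SD, n = 3 each), a log2 fold change of 1.34 with a standard error of 0.07 (adjusted p = 1.04e-10, edgeR). By mean CPM, not corrected for transcript length, it held rank 46 at t4 and rank 228 at t3. The level had been 254.1 ± 8.77 CPM at t1 and 194.3 ± 18.8 CPM at t2, so the time course passed through its lowest value at ammonium depletion. From t2 to t3 it had already risen, by a log2 fold change of 1.27 (adjusted p = 1.94e-10, edgeR). The difference between that step and the last one was not called (adjusted p = 0.754, edgeR).

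The largest fall belonged to gene model e_gw1.13.329.1. It had 82, 83 and 85 reads in the t4 libraries, against 923, 860 and 1031 reads in the t3 libraries. The 3 values of each time point were nearly equal and the groups were far apart, where the choice of this gene model required that they not overlap. The mean was 7.36 ± 0.276 CPM at t4 and 86.7 ± 3.24 CPM at t3 (SD, n = 3 each), a log2 fold change of −3.56 with a standard error of 0.09 (adjusted p = 2.40e-14, edgeR). Levels at t1 and t2 had been 106.4 ± 8.09 and 131.8 ± 9.49 CPM, so the transcript was well expressed until day 9. From t2 to t3 it had already fallen, by a log2 fold change of −0.60 (adjusted p = 8.61e-07, edgeR). The last step differed from that one by −2.95 on the log2 scale (adjusted p = 1.7e-10, edgeR). The t3 libraries enter both steps and the choice of this gene model.

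By the same mean, the most abundant of the gene models that fell at least 2-fold was fgenesh1_pm.43_#_3. Its CPM was 862.8, 950.7 and 1001 at t4, against 3053, 3228 and 2968 at t3. The lowest t3 library was far above the highest t4 library, and the choice of this gene model required that the groups not overlap. The mean was 938.0 ± 69.8 CPM at t4 and 3083 ± 132.6 CPM at t3 (SD, n = 3 each), a log2 fold change of −1.72 with a standard error of 0.08 (adjusted p = 4.10e-11, edgeR). By mean CPM, not corrected for length, it stood at rank 69 at t4 and rank 8 at t3. It had been at 2204 ± 164.2 CPM at t1 and 3065 ± 341.8 CPM at t2, so its level held through the first glucose depletion and fell after it. From t2 to t3 no change was called (log2 fold change 0.01, adjusted p = 0.94, edgeR). The last step differed from that one by −1.72 on the log2 scale (adjusted p = 1.03e-07, edgeR). The t3 libraries enter both steps and the choice of this gene model.

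**Figure D3:**
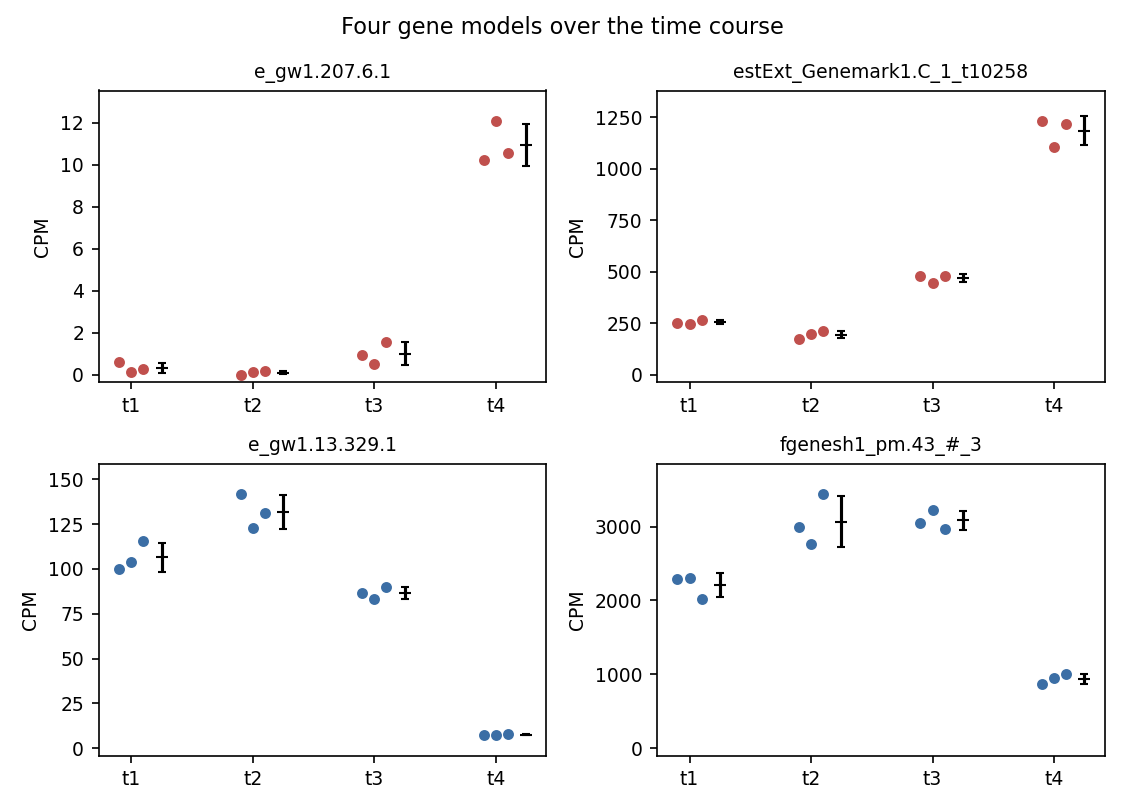
CPM of 4 gene models is plotted at t1, t2, t3 and t4, with 1 point per library and bars for mean ± SD of 3 libraries. The upper gene models reach 10.9 and 1183 CPM at t4, against 0.998 and 468.4 CPM at t3, and the lower ones 7.36 and 938.0 CPM at t4, against 86.7 and 3083 CPM at t3.

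The 10 largest rises and the 10 largest falls differed in their histories. The 10 largest rises spanned log2 fold changes of 2.35 to 3.42, with mean levels of 8.25 to 1387 CPM at t4 and 0.998 to 171.3 CPM at t3. Before that, 1 of these 10 had risen and 5 had fallen at t2 against t1. The 10 largest falls spanned 2.16 to 3.56 on the log2 scale, with mean levels of 4.73 to 414.4 CPM at t4 and 40.6 to 1857 CPM at t3. Of these, 9 had risen at t2 against t1 and 0 had fallen, and the last of the 10 had a log2 fold change of 0.16. Over all tested gene models 14.1% rose and 18% fell at t2 against t1. At t3 against t2, 7 of the 10 largest rises had already risen and 1 had fallen. In that step 9 of the 10 largest falls had already fallen and 0 had risen, where 37.6% of all tested gene models changed in either direction. The t3 libraries enter both that step and the choice of these lists. Both lists were drawn only from gene models past the 1% false discovery rate whose t4 and t3 libraries did not overlap.

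The same contrast between histories was seen over all gene models that changed at least 2-fold. Those that fell at t4 had held a peak at t2, with a share of all counts of 3.11% at active growth, 4.10% at ammonium depletion, 2.85% at t3 and 1.04% at t4. The values per library were 1.03, 1.06 and 1.02% at t4 and 2.86, 2.87 and 2.81% at t3. Those that rose at t4 had passed through a low at the same time point, with 0.683% of all counts at active growth, 0.552% at ammonium depletion, 0.884% at t3 and 2.45% at t4. Per library they held 2.26, 2.45 and 2.65% at t4 and 0.881, 0.905 and 0.865% at t3. The sets were chosen by the difference between t4 and t3, so only the t1 and t2 values are free of that choice.

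**Figure D4:**
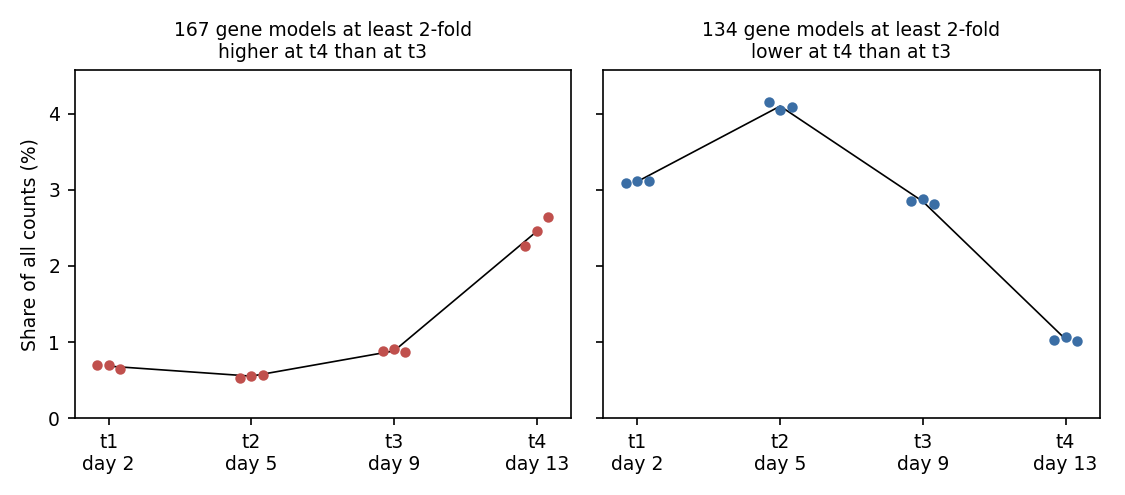
The share of all counts (%) held by the 167 gene models at least 2-fold higher at t4 than at t3 (left) and by the 134 at least 2-fold lower (right) is plotted for t1 to t4, with 1 point per library and a line through the means. The right panel peaks at 4.10% at t2, and the left panel is lowest at 0.552% at the same time point.

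The comparison of t2 with t1 shares no library with that of t4 with t3, and so gives a separate view of these gene models. Of all 12032, 14.1% rose and 18% fell at t2 against t1. Of the 134 gene models at least 2-fold lower at t4, 59 (44.0%) had risen at t2 and 19 (14.2%) had fallen, with a median log2 fold change of 0.25. Of the 167 at least 2-fold higher at t4, 9 (5.39%) had risen at t2 and 53 (31.7%) had fallen, with a median of −0.35. The median over all tested gene models was 0.00.

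The share that had moved the other way at t2 was higher in each larger size class of the change at t4. Of the gene models that fell at t4 by less than 1.5-fold, 17.3% had risen at t2, beside 25.1% of those that fell by 1.5 to 2-fold, 38.1% at 2 to 4-fold and 87.5% at 4-fold or more. The last value stands for 14 of 16 gene models, whose median log2 fold change at t2 was 1.24. The share that had fallen at t2 went the other way and was 39.4, 31.0, 16.1 and 0% in the same order. For the gene models that rose at t4, the shares that had fallen at t2 were 22.8, 28.3, 31.5 and 33.3% in these 4 size classes, and the shares that had risen were 15.5, 7.22, 5.48 and 4.76%. The last class of rises holds 7 of 21 gene models. Among falls at t4 of at least 4-fold, rises at t2 outnumbered falls by 14 to 0, whereas among falls of less than 1.5-fold, falls at t2 outnumbered rises by 450 to 197. The size classes were not matched for expression level, and smaller changes could pass the test at high counts. In the highest of 10 classes of mean CPM over the 12 libraries, 18.8% of all gene models rose at t2 and 38.7% fell. The part of the expression level in these shares was not tested. Across all 12032 gene models, which are not independent replicates, the log2 fold changes of both comparisons were barely related (Pearson r = −0.09, Spearman rho = 0.01).

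These shares depend on the normalization. The authors deposited a factor for each gene model and library that adjusts for transcript length, G/C content and depth. With these as offsets in edgeR, 157 gene models were at least 2-fold lower at t4, of which 26.1% had risen at t2, and 183 were at least 2-fold higher, of which 24.0% had fallen at t2. The corresponding shares over all tested gene models were 10.4 and 15.1%. For the 134 and 167 gene models named above, these offsets gave 46 that had risen at t2 and 17 that had fallen among those lower at t4, and 8 and 48 among those higher at t4. Of the 16 gene models with falls of at least 4-fold, 10 had risen at t2 with these offsets and 0 had fallen.

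Falls were concentrated among the strongly expressed gene models. The tested gene models were divided into 10 classes of equal size by mean CPM over all 12 libraries, not corrected for transcript length. In the highest class, from 178.7 CPM upwards, 395 gene models (32.8%) fell and 187 (15.5%) rose at t4. In the middle class 5, 10.8% fell and 11.8% rose. At least 2-fold falls outnumbered such rises in the highest class by 38 to 14. In class 3, the most uneven of the lower classes, there were 8 such falls and 27 rises. The remaining classes were nearer to balance, each with 9 to 16 such falls and 11 to 23 rises. The median log2 fold change was −0.09 in the highest class and 0.06 in the lowest. In the highest class falls were also common earlier, as 38.7% of all its gene models fell at t2 against t1, beside 50.6% of the 395 that fell at t4. The median standard error was 0.064 in class 10 and 0.258 in class 1, so smaller changes could pass the test at high counts, and the part of this in the calls of each class was not tested.

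**Figure D5:**
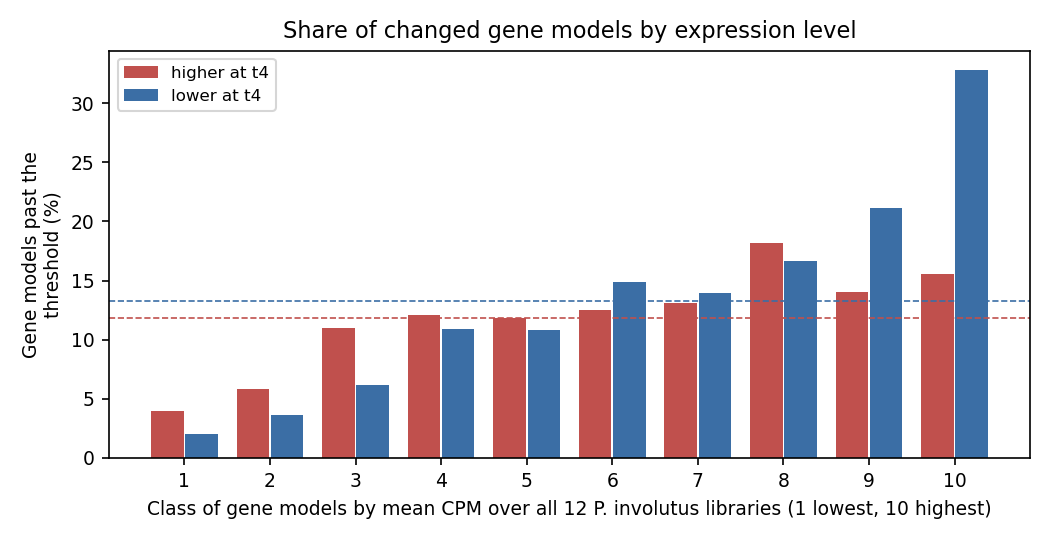
The share of gene models past the 1% false discovery rate (%) is plotted for 10 classes of mean CPM, with 1 bar per direction and dashed lines at the shares over all tested gene models, 11.8% higher and 13.3% lower at t4. The bar for falls in class 10 reaches 32.8%, and that for rises 15.5%.

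Falls also outnumbered rises in the highest class with the authors' factors, at lower shares. With them in edgeR 21.2% of the highest class fell and 11.05% rose at t4, where 9.28% of all tested gene models fell and 9.56% rose. In DESeq2 with these factors 28.2% of the class fell and 14.5% rose, beside 9.87 and 9.42% of all tested gene models. The median log2 fold change of the class was −0.10 with these factors in both tools, close to that with TMM.

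Among the most abundant gene models, not corrected for length, falls outnumbered rises. Of the 10 most abundant gene models at t3, 7 fell at t4 and 0 rose, with log2 fold changes from −1.72 to 0.06 and a median of −0.55. Of the 10 most abundant at t4, 4 fell and 2 rose, and 7 gene models were in both lists. Choosing by t3 or by t4 level favours falls or rises, so the 50 most abundant over all 12 libraries were also taken. Of these, 25 fell (3 of them at least 2-fold) and 4 rose, with a median log2 fold change of −0.29. Over all tested gene models 13.3% fell and 11.8% rose, and in the highest class 32.8% fell and 15.5% rose. Smaller changes could pass the test at such counts, as stated above for that class. The single most abundant gene model of a library held 1.33 ± 0.18% of the counts at t4 and 1.90 ± 0.11% at t3 (SD, n = 3 each).

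In mean shares of counts, 10.3% of all reads lay on other gene models at t4 than at t3. The loss was more concentrated than the gain. Of the 17968 gene models, 6220 lost and 7367 gained share, and 114 gene models made up 50% of the loss, beside 277 for 50% of the gain. The 10 largest losses summed to 2.28 percentage points and the 10 largest gains to 1.01 points. The largest single loss was 0.565 points and the largest single gain 0.190 points.

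The gene models called at t4 had moved in the course as a whole. The 1599 that fell held 38.4, 35.8, 29.4 and 20.98% of all counts at the successive time points t1 to t4. The 1421 that rose held 10.2, 10.0, 13.3 and 20.4% in the same order. The t1 and t2 values are free of the choice of these sets. At t2 against t1 the first set already held 569 gene models that fell (35.6%) and 337 that rose (21.1%), both above the 18% that fell and the 14.1% that rose over all tested gene models. Of the 1421 that rose at t4, 359 had fallen (25.3%) and 174 had risen (12.2%) at t2. Of the 1599 that fell at t4, 395 belonged to the highest class, in which falls at t2 were common.

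Whether the last step differed from the step before it was tested for each gene model. The change from t3 to t4 differed from the change from t2 to t3 in 1174 gene models (9.76%), being higher in 511 (4.25%) and lower in 663 (5.51%), with median differences of 0.70 and −0.80 on the log2 scale (edgeR, 1% false discovery rate). The t3 libraries enter both steps, and leaving out t3 replicate 1, 2 or 3 gave 690, 735 or 778 gene models. Against the step from t1 to t2, which shares no library with it, the last step differed in 3291 gene models (27.4%), higher in 1703 (14.2%) and lower in 1588 (13.2%). The first of these differences is estimated less precisely, because t3 enters both of its steps. The numbers 1174 and 3291 are therefore not directly comparable.

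Large changes kept their call more often than the called changes as a whole. Of the 167 gene models at least 2-fold higher at t4, 140 stayed past the 1% false discovery rate in the same direction under each of 6 other analyses, and 116 of the 134 at least 2-fold lower did so. These analyses were DESeq2, DESeq2's size factors in edgeR, the authors' factors in edgeR and in DESeq2, the replicate number as a block, and a fit of t3 and t4 alone. Over all called gene models, 775 of the 1421 that rose and 772 of the 1599 that fell met this condition. The authors' factors removed most of the others, since 932 of the 1421 and 915 of the 1599 kept their call with them in edgeR, while 28 and 38 took the opposite direction. All 4 gene models named above kept their direction and their call in these 6 analyses, without the filter, and with each of the 6 libraries left out.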

How the data were processed

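RNA of *P. involutus* mycelium was sequenced as single 50-base reads on a HiSeq2000 instrument. The authors removed ribosomal reads, aligned the rest to the filtered gene models with TopHat2 (version 2.0.13), and used HTSeq (version 0.6.1) to obtain strand-specific counts over coding sequence. These counts were deposited as raw whole numbers. Counts of near-identical gene copies are less certain, since the alignment settings did not admit reads with several hits in the transcriptome. The authors also deposited regularized log2 values (rlog) and normalization factors per gene model and library, a ratio without unit that they made with EDASeq and DESeq2.

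The filter was a mean count of 11 or more over 12 libraries, which follows the methods of the study. Tests used TMM factors and edgeR's quasi-likelihood test (edgeR version 4.0.16, limma version 3.58.1, R version 4.3.3) on all 12 *P. involutus* libraries. The false discovery rate was held at 1% by Benjamini-Hochberg adjustment. Standard errors were derived from the F statistic. Single values per library were compared with exact permutation tests. The edgeR p-values set a difference against the spread between cultures within time points, estimated over all 12 libraries and moderated across gene models. The permutation tests used only the 6 libraries of t4 and t3. The scripts were tested on simulated data. The members, lists and alternatives were chosen with earlier results of these data known. Alternatives were DESeq2 (version 1.42.0), its size factors, the authors' factors, no filter, the replicate block, a fit of t3 and t4 alone, each library left out, a false discovery rate of 5% and rlog. DESeq2 with the authors' factors was added after seeing the data. Named gene models were, in each direction, the largest change and the most abundant one changed at least 2-fold, both without overlap of libraries. More were not named because 0 of 17968 gene models matched the 18033 genes of the reference table. The *L. bicolor* tables were not used here.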

Additional observations from a re-analysis of the deposited data

Results flagged for a closer look

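Gene models under the mean count of 11 were outside the comparison. When they were tested as well, 5 of 1689 such gene models (0.296%) passed the 1% false discovery rate between t4 and t3 (edgeR's quasi-likelihood test), 3 higher and 2 lower at t4. Their mean counts over the 12 libraries were 3.58 to 10.3, and the highest count of any of them in a library was 25 at t4 and 55 at t3. Of the 5, 1 had no reads in the t3 libraries.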

How the results depend on the processing

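Of 263 values under 18 alternatives, 228 stayed within the limits set for them and 35 did not. A turn of direction could be recorded only for the 4 named gene models and the share of the 10 most abundant gene models. There 0 turns were found, and the other values are counts or sizes without a direction. With 1 library left out, 1104 to 1355 gene models rose and 1221 to 1494 fell, and the difference in the share of the 10 most abundant gene models was −1.48 to −1.23 points. The median absolute log2 fold change was then 0.191 to 0.196, and the last step differed from the one before it in 690 to 1326 gene models. In the lowest expression class 2.33 to 3.57% rose and 0.831 to 1.66% fell with 1 library left out, where the whole set gave 3.99 and 2.00%.

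In that class 1.41% rose and 0.914% fell with DESeq2. The share that rose was 2.41% with the authors' factors, and the share that fell was 0.831% in the fit of t3 and t4 alone and 3.24% in DESeq2 with the authors' factors. At a false discovery rate of 5% these shares were 8.23 and 5.32%. The authors' factors gave a median absolute change of 0.186, as they did in DESeq2, the fit of t3 and t4 alone 0.187, and rlog values, which are shrunken, 0.0948. With the authors' factors 21.2% of the highest class fell, and 26.1% of the gene models at least 2-fold lower at t4 had risen at t2 (26.6% in DESeq2). The number of gene models that moved in the same direction at t4 and at t2 was 743, beside 399 with the authors' factors, 456 with them in DESeq2 and 1301 at 5%. Those moving in opposite directions numbered 696, beside 472, 516 and 1179 in the same order, so that opposite directions were the more common with the authors' factors. The same held without t4 replicate 2 (608 opposite, 543 same), t4 replicate 3 (700 and 677) or t3 replicate 1 (599 and 551). The difference between the last 2 steps passed for 2203 at 5%. The share of the single most abundant gene model differed by −0.57 points and that of 50 gene models by −1.67 points. Apart from the false discovery rate, the left-out libraries and the number of gene models summed, the cause was not tested.

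The replicate numbers did not pair the libraries. Deviations from the group means correlated between same-numbered t4 and t3 libraries at −0.33 to 0.03, and between the others at −0.29 to 0.30. With the replicate block 1342 gene models rose and 1533 fell. With 3 libraries per time point and at least 9879088 reads in each, changes of low-count gene models are the least certain.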

Other observations

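The names of the gene models begin with 1 of 11 prefixes, which mark the gene prediction they came from. Of the 2741 tested gene models with the prefix fgenesh1_kg, 19.8% fell and 13.2% rose at t4, and their median level was 84.1 CPM. Of the 2106 with the prefix gm1, 8.26% fell and 11.4% rose, and their median level was 12.3 CPM. Within the highest expression class 33.2% of the fgenesh1_kg gene models fell and 14.9% rose, beside 30.8 and 20.98% of the gm1 gene models. Over the 11 prefixes the share that fell spanned 7.43 to 19.8% in all classes and 10.5 to 41.9% in the highest class, where some prefixes had few gene models.

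Some gene models had reads at only 1 of both time points. Of the 17968, 131 had 0 reads in every t3 library and at least 1 read at t4, and 142 the opposite. The most covered of the 131 had 30 reads over the t4 libraries. There were 7 gene models with reads in every t4 library and 0 in every t3 library. The opposite was found for 6, with at most 6 reads over the t3 libraries. All 13 lay under the mean count of 11 and so were outside the main comparison, and 4381 gene models had 0 reads in all 6 libraries.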
